A study of Mus musculus with 32 samples.

Results

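Major urinary protein (*Mup*) genes were examined in liver RNA-seq data from mice that lack proteins of mitochondrial fission or fusion. The 6 genes are *Mup3*, *Mup7*, *Mup17*, *Mup20*, *Mup21* and the pseudogene *Mup-ps22*. The rows were selected by gene symbol, and all 6 of the 6 listed symbols were found among the 21880 genes of the table. The symbols had been picked because several of these genes were strongly lower in L-*Dnm1l*–KO than in WT mice at 2M in the authors' comparisons, whose values are not used here. The picking is therefore no finding, and no genotype is compared with another below.

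The 32 liver libraries form 8 groups of 4. WT mice and the knockouts L-*Dnm1l*–KO, DKO and TKO each have 4 libraries at 2M and 4 others at 6M. L-*Dnm1l*–KO mice lack *Dnm1l*, the gene of the fission protein DRP1. DKO mice lack the fusion genes *Mfn1* and *Mfn2*, and TKO mice lack the 3 genes together. Floxed alleles were deleted with Cre under the albumin promoter, so the deletion is aimed at hepatocytes. Which other liver cells keep the genes was not tested here. The sex of the sequenced mice is not given in the labels. What was analysed is 1 value per gene, the authors' mean normalized count over the libraries of both ages and every genotype. A gene with a large change in 1 group and a gene with a steady level can have the same mean, and no spread between mice can be given for any value below. In liver samples, fewer hepatocytes and less *Mup* RNA per hepatocyte cannot be told apart.

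Major urinary proteins are small secreted lipocalins, barrel-shaped proteins that hold volatile pheromones in their pocket. Hepatocytes make them, the blood carries them to the kidney, and they leave in the urine, where they slow the release of the scent. Their genes lie side by side in a cluster of recent copies and pseudogenes, and in liver they are known for higher expression in males, driven by pulses of growth hormone through STAT5b. *Mup20* encodes darcin, the male pheromone protein to which females are attracted.

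How alike the copies are is shown by the same 75 bases of each gene, which is the length of 1 sequencing read here. They are the first 75 bases of the fourth exon of the main transcript in the coding genes and the matching bases of the pseudogene, written in the sense direction and read from GENCODE M21 transcripts. Capitals mark bases that differ from *Mup7*.

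Mup7: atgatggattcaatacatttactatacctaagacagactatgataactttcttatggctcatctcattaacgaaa

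Mup17: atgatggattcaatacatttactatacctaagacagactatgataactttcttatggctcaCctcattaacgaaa

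Mup21: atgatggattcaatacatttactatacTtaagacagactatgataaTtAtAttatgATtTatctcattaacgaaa

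Mup3: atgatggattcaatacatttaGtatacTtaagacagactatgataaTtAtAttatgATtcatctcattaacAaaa

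Mup20: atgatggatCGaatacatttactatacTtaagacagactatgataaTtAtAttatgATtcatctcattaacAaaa

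Mup-ps22: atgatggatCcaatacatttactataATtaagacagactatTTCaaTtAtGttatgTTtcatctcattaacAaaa

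The *Mup7* stretch (chr4:60068201-60068275 on GRCm38, minus strand) was present without a change in 14 other *Mup* genes. A read from these bases carries nothing that tells *Mup7* from any of the 14. *Mup17* (chr4:61593657-61593731, minus strand) differed from it at 1 base and shared its stretch with no other *Mup* gene. *Mup21* (chr4:62148620-62148694, minus strand) differed at 7 bases, *Mup3* (chr4:62085240-62085314, minus strand) at 8 and *Mup20* (chr4:62051937-62052011, minus strand) at 9. The *Mup20* stretch was also present in *Mup-ps19*, and those of *Mup3* and *Mup21* were in no other *Mup* gene. *Mup-ps22* (chr11:55123699-55123773, plus strand) differed at 12 bases, the most of the 6.

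The whole coding sequences formed 2 close pairs. *Mup7* and *Mup17* were identical at 533 of 540 aligned bases (98.7%). *Mup3* and *Mup21* were identical at 523 of 543 (96.3%). *Mup20* stood between the pairs, with 90.6% identity to *Mup7*, 91.5% to *Mup17*, 88.0% to *Mup3* and 87.5% to *Mup21*. *Mup3* and *Mup7* were the least alike, at 83.1%. Across the 240 bases that could be aligned, *Mup-ps22* was closest to *Mup20* among the picked genes, at 90.0%, and over the whole family it was closest to *Mup-ps19*, at 92.1% of 216 bases. Its 243 bases have no stop codon in frame before the last of their 81 codons.

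**Figure D1:**
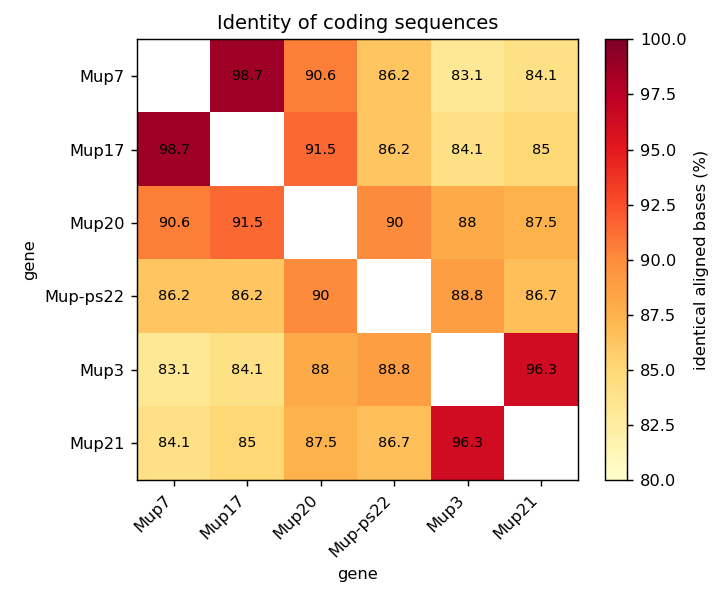
Percent of identical aligned bases between the coding sequences of the 6 picked genes, with the whole annotated sequence used for the pseudogene; both axes list genes and color gives the percent. The pairs *Mup7* with *Mup17* (98.7%) and *Mup3* with *Mup21* (96.3%) stand above the other pairs.

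The 5 coding genes lie on the minus strand of chromosome 4, in a cluster of 48 annotated *Mup* genes and pseudogenes that spans 2194 kb (chr4:59956804-62150863 on GRCm38). *Mup7* (ENSMUSG00000073842, chr4:60066469-60070475) is near the low end and *Mup17* (ENSMUSG00000096688, chr4:61591929-61595871) is in the central block of near-identical copies. *Mup20* (ENSMUSG00000078672, chr4:62050234-62054158), *Mup3* (ENSMUSG00000066154, chr4:62083476-62087342) and *Mup21* (ENSMUSG00000066153, chr4:62147932-62150863) follow each other at the high end. *Mup-ps22* (ENSMUSG00000080738, chr11:55123695-55123937) is a processed pseudogene on chromosome 11, a single exon on the plus strand. The nearest annotated gene beyond its high end lies 878 bases away, and whether a longer gene spans it was not tested. No *Mup* row had an annotated exon of another gene on the opposite strand.

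Levels differed widely within the family. *Mup3* had an authors' mean normalized count of 468.0, rank 265 of the 21880 genes and 44.1% of the sum over the *Mup* rows. *Mup7* had a mean normalized count of 135.4 and *Mup20* one of 133.0. With no spread over samples, these neighbours cannot be placed above or below each other. *Mup-ps22* had a mean of 55.5, *Mup21* one of 17.6 and *Mup17* one of 15.3.

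Altogether, 32 of the 49 annotated *Mup* genes had a row in the analysed table, 21 coding genes and 11 pseudogenes. Their mean normalized counts summed to 1061, or 0.118% of the sum over the table, and the picked genes made up 77.8% of that. Of the 32 rows, 9 had a mean of at least 10, 5 lay between 1 and 10, and 18 were under 1. The 3 rows outside the picked genes with a mean of at least 10 were *Mup-ps13* (175.1), *Mup14* (18.3) and *Mup11* (14.2). *Mup-ps13*, an unprocessed pseudogene on the plus strand (chr4:61534230-61536973), ranked second in the family. *Mup1*, a coding copy inside the cluster, had a mean of 5.20. *Mup4* and *Mup5*, which are known from lacrimal and salivary glands, had means of 0.149 and 0.358.

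**Figure D2:**
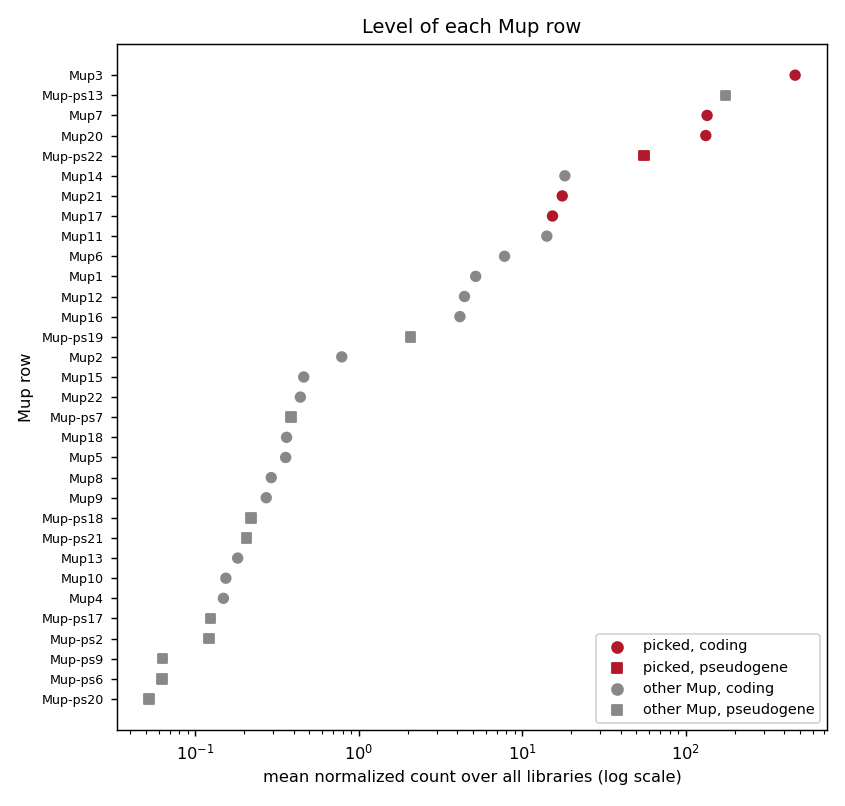
Authors' mean normalized count over all libraries (horizontal log axis) of each of the 32 *Mup* rows; color marks the picked genes, circles are coding genes and squares pseudogenes, and no error can be drawn because 1 pooled value per gene was used. *Mup3* lies highest at 468.0, and 18 rows lie under 1.

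**Figure D3:**
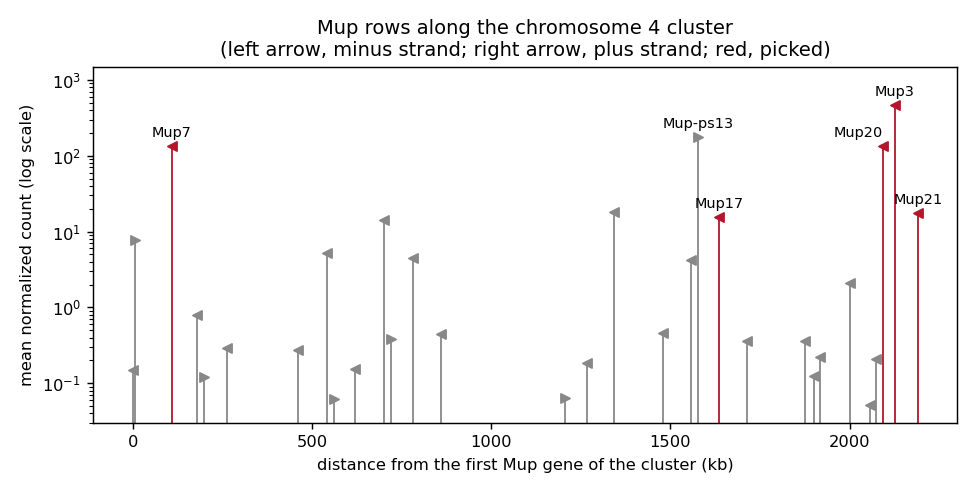
Mean normalized count (log axis) of the *Mup* rows of chromosome 4 against their distance in kb from the first gene of the cluster; arrows give the strand and red marks picked genes. *Mup20*, *Mup3* and *Mup21* sit together at the far end, with means of 133.0, 468.0 and 17.6, and *Mup7* stands alone near the start.

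Levels of different genes can be compared only per length, so the mean count was divided by the length of the merged exons. On this scale, mean normalized counts per kb were 438.2 for *Mup3*, 228.5 for *Mup-ps22*, 143.3 for *Mup20*, 131.1 for *Mup7*, 26.0 for *Mup21* and 16.5 for *Mup17*. The level per kb of *Mup3* was 16.9 times that of *Mup21*, its closest relative in sequence, and 26.2 times over coding length. That of *Mup7* was 7.92 times that of *Mup17*, with which it shares 98.7% of its coding bases. The short pseudogene moved up to second place among the 6. That place depends on the length used: over coding length, *Mup7* reached 250.8 and *Mup20* reached 244.9 counts per kb, both above *Mup-ps22*, which has no coding length and kept its whole length. *Mup3* stayed first and *Mup21* and *Mup17* stayed last on each of the 3 length scales tried.

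Read assignment limits the values of the 5 coding genes, because a read that fits 2 copies equally well cannot be given to one of them. Each annotated *Mup* transcript was cut into all its windows of 75 bases, and a window was counted as the gene's own when it was found, on either strand, in no annotated transcript of another gene. All 169 windows of *Mup-ps22* were its own. The share was 94.6% for *Mup3* (1078 of 1140 windows) and 89.7% for *Mup21* (541 of 603), and the 62 windows that each lacked were shared between them alone. For *Mup20* it was 56.4%, and the remaining 372 windows were shared with *Mup-ps19*, which matched it at all of 516 aligned bases and had a mean normalized count of 2.08. *Mup17* had 31.3% of its own windows and shared others with 18 *Mup* genes. *Mup7* had 18.9% and shared others with 17, most of all with *Mup1* (596 of 1106 windows).

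Divided by own windows instead of length, the means were 64.8 counts per 100 own windows for *Mup7*, 43.4 for *Mup3*, 32.9 for *Mup-ps22* and 27.6 for *Mup20*. *Mup17* had 5.75 and *Mup21* had 3.25. On this scale *Mup7* came first, ahead of *Mup3*, and *Mup17* lay above *Mup21*, the reverse of their order per kb. *Mup3* was 13.3 times *Mup21* per own window, and *Mup7* was 11.3 times *Mup17*. It would be the fitting one only if reads with several equal positions had been dropped, which the sources used here do not state. Across the 21 coding rows, the share of own windows and the mean normalized count had a Spearman's rho of 0.20, given as a description because the copies share windows and libraries. *Mup15* and *Mup22*, with no window of their own, had means of 0.461 and 0.440. *Mup6*, with all 925 its own, had a mean of 7.81, while *Mup4* with 99.6% and *Mup5* with 95.4% had the lower means given above.

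**Figure D4:**
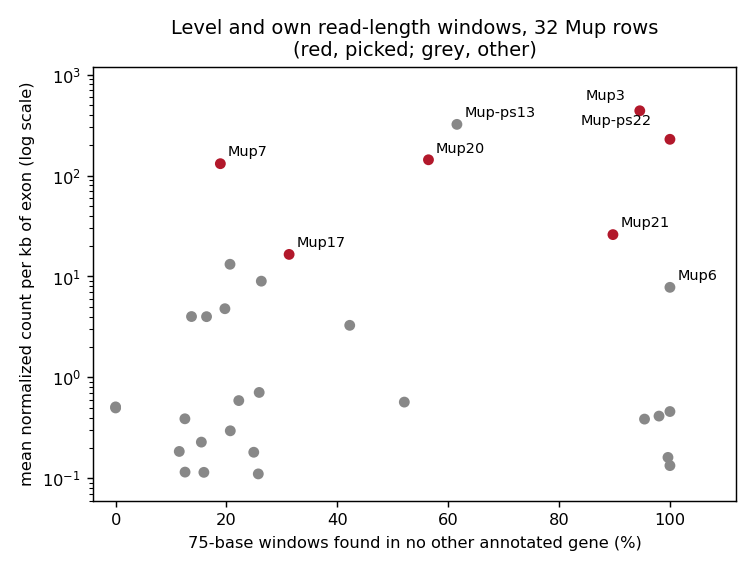
Mean normalized count per kb of exon (vertical log axis) against the percent of 75-base windows found in no other annotated gene, for the 32 *Mup* rows, with picked genes in red. *Mup3*, *Mup-ps22* and *Mup21* lie at the right with 89.7% or more of their own windows, and *Mup7* and *Mup17* at the left with 18.9% and 31.3%.

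A further limit is the strand. The libraries are strand-specific, and which strand was counted is not given in the sources used here. The 4804 rows with exons opposite those of a coding gene held 83.8% of the summed mean counts, and 92 of the 100 highest rows were of this kind. The 9895 coding genes with nothing annotated opposite their exons, to which the 5 coding *Mup* genes belong, held 9.65%. Among those coding genes *Mup3* ranked 21, *Mup7* 77, *Mup20* 79, *Mup21* 747 and *Mup17* 853. Whether the *Mup* counts are of sense reads, and what share of the *Mup* RNA they stand for, was not tested.

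The 6 picked *Mup* genes were then set beside other genes of liver (medians over each list, in mean normalized counts per kb). The picked genes had a median of 137.2 and a range of 16.5 to 438.2. Over all rows the median was 0.547. Over all 32 *Mup* rows, the median of the mean normalized counts, not per kb, was 0.451, beside 1.52 over all rows. Of the 10 other lipocalins listed, 9 were in the table, with a median of 14.2, and among them *Ambp*, the precursor of the plasma lipocalin alpha-1-microglobulin, reached 259.0 and *Rbp4*, the carrier of retinol, 158.8. The 10 genes known as male-biased in liver had a median of 7.80. *Cyp2d9*, a steroid hydroxylase, had 21.6 and *Slco1a1*, an organic anion carrier, 20.0, values that lie between those of *Mup17* and *Mup21*. Of growth hormone signalling, whose 10 genes had a median of 0.667, the receptor gene *Ghr* had 7.96, *Stat5b* 0.748 and *Stat5a* 0.586. Which genes of these lists have exons opposite those of a coding gene was not examined, so these comparisons may not be ones of RNA amount.

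Hepatocyte markers were present, as the liver label implies, with 5 of 6 in the table and a median of 266.1 counts per kb. *Alb*, the gene of albumin, had 2117 counts per kb, 4.83 times the value of *Mup3*. Markers of macrophages, endothelial cells, stellate cells and cholangiocytes had medians between 0.0644 and 1.16. The hepatocyte markers ranged from 54.8 counts per kb upwards to *Alb*. *Mup3* lay above their median and the other 5 picked genes below it. Each picked gene lay above each of the 16 markers of other liver cells. For the markers too, it was not examined which have exons opposite those of a coding gene.

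**Figure D5:**
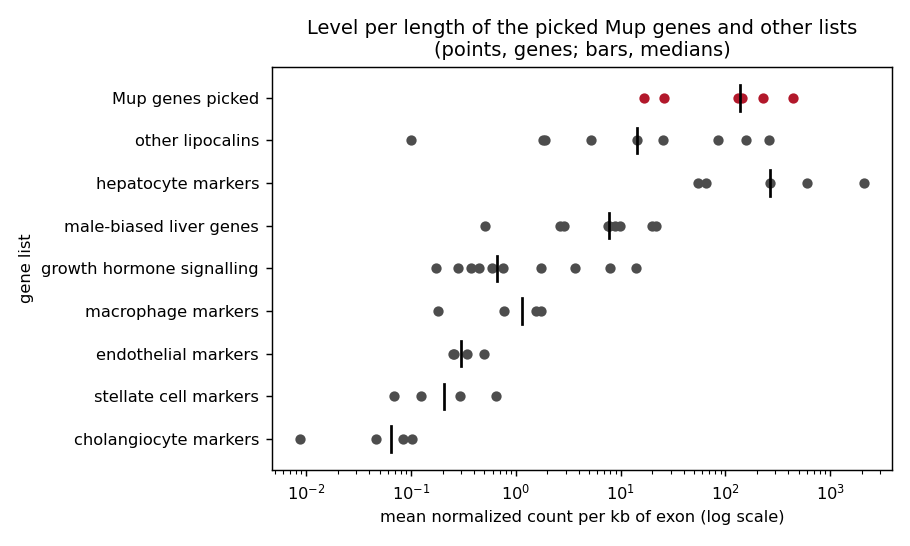
Mean normalized count per kb of exon (log axis) of the picked *Mup* genes and of 8 other gene lists; points are genes and bars are list medians. The picked genes range from 16.5 to 438.2, with a median of 137.2, beside medians of 266.1 for the hepatocyte markers and 7.80 for the male-biased liver genes.

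Promoter windows from RefSeq (GRCm38.p6), with 250 bases before and 50 after the annotated start, were available for 4 of the 6 genes, *Mup3*, *Mup7*, *Mup17* and *Mup21*. They are given because growth hormone is known to act on *Mup* transcription. None of the 4 windows held TTCNNNGAA, the letters of a STAT5 site, on either strand, against 8.30% of all 32851 windows of the same length. With 1 more N in the spacer, the letters were in the *Mup7* window and in 6.95% of all windows. None of the 4 held TATAAA, against 13.6%. *Mup3*, *Mup17* and *Mup21* held TATATAA, a motif chosen after the windows were read, on the given strand, and 3.24% of all windows held it on either strand. The 55 bases around it are given 5′ to 3′, with the motif in capitals.

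Mup17: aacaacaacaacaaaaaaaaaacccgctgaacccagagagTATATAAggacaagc

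Mup3: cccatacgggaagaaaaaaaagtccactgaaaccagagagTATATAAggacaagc

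Mup21: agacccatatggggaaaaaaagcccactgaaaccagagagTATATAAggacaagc

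The stretches are chr4:61595843-61595897 for *Mup17*, chr4:62087314-62087368 for *Mup3* and chr4:62150835-62150889 for *Mup21*, each on the minus strand. The motif began 25 bases before the RefSeq start in *Mup17*, 11 in *Mup3* and 8 in *Mup21*. Counted from the GENCODE gene starts, it began 14 bases after the start in each of the 3, so the differing distances follow the RefSeq starts. The *Mup7* window lacked these letters, but it aligned with that of *Mup17* over only 171 of the 300 bases. Whether it covers the matching position was not tested. Over the 300 bases, the windows of *Mup3* and *Mup21* were 93.9% identical where aligned, and the *Mup7* and *Mup17* windows were 97.7% identical over the 171 bases they have in common. A match describes letters only, and no match says nothing of a factor outside these windows.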

How the data were processed

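Liver poly(A) RNA was sequenced as strand-specific, single-end 75-base libraries. The authors mapped reads with HISAT2 (2.1.0.13 in the submitters' processing notes) to GRCm38, counted them with HTSeq and fitted DESeq2. The signal deposited by the authors, 1 mean normalized count per gene, averages the libraries' counts after division by size factors, and is identical in 6 blocks. The other deposited columns hold the authors' own comparisons (log2 fold changes, errors, Wald statistics and p-values of each knockout against WT of the same age) and were not used. Single libraries were not analysed, so depth per library is unknown and the planned edgeR tests of genotype were not run.

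Members and gene lists were chosen with earlier results of these data known. Named genes are the 6 listed, the other *Mup* rows, and fixed lists of lipocalins, growth hormone signalling, male-biased liver genes and cell markers. Positions, exons and transcripts came from GENCODE M21 (GRCm38), which held 21833 of the identifiers and lacked 47, and promoters from RefSeq. The main transcript was the APPRIS principal one, or that with the longest coding sequence. Sequences were aligned end to end with free end gaps (match 2, mismatch -1, gap opening -6, extension -1) in Biopython 1.88 under Python 3.11.15 with pandas 2.3.3 and scipy 1.17.1; coding sequences replaced the planned proteins. Window counting was tested on simulated data. Alternatives were other lengths, rank sets, identity denominators, motifs and window sizes.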

Additional observations from a re-analysis of the deposited data

How the results depend on the processing

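The median over the 6 genes of mean normalized counts per kb, 137.2 over merged exons, was 144.7 over the main transcript and 236.7 over coding length, with the whole length kept for *Mup-ps22*. Their median rank, 1168.5 of all rows, stayed at that value among rows with a mean of at least 1, was 451.0 by count per kb and was 145.0 when they were placed among coding genes with nothing annotated opposite their exons, a set chosen after seeing the data. Median identity of the 5 coding genes was 87.8% over aligned bases and 87.0% over the longer sequence. Of the 4 promoter windows, 0 held TTCNNNGAA, 1 held it with a spacer longer by 1 base (6.95% of all windows), and 3 held TATATAA, chosen after seeing the data. The median share of own windows was 73.1% with 75 bases and 65.1% with 50 bases, also added after seeing the data. No paired analysis was possible because the table holds 1 mean over all libraries and no replicate numbers; other normalizations and leaving out replicates could not be tried for the same reason, and counting error cannot be given without depth.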
